A study of Mus musculus with 18 samples.

Results

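Pla2g7 and 1700071M16Rik lie on opposite strands of the same stretch of mouse chromosome 17. Pla2g7 is protein coding, and 1700071M16Rik is annotated as an antisense transcript inside it. They are 2 of the 55414 gene identifiers in the count table, matched by Ensembl identifier (ENSMUSG00000023913 and ENSMUSG00000090307). The pair was chosen with measured values of these libraries known, and which of them led to the choice is not stated. Every value below that compares PM2.5 with air for these 2 genes, or sets that comparison in macrophages against the one in spleen, is therefore a description and carries no test.

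The study measured polyadenylated RNA from wild-type C57BL/6J mice that breathed filtered air or fine particulate matter (PM2.5) during 30 days. Whole spleens gave 4 air and 4 PM2.5 libraries. A second experiment gave macrophages isolated from spleen, with 5 air and 5 PM2.5 libraries. For that experiment the treatment text says that filtered air followed the exposure to air or PM2.5. The PM2.5 libraries carry the label CAP, which the labels do not spell out, and were read as PM2.5 because the protocol names no other exposure. Macrophage PM2.5 replicate 1 has a title of the CAP group but a treatment tag of air exposure. It was grouped by its title. The labels give no sex, age, pooling or method of macrophage isolation, and name each library a biological replicate without saying whether it is 1 animal.

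Pla2g7 encodes a secreted phospholipase A2, also called lipoprotein-associated phospholipase A2 or platelet-activating factor (PAF) acetylhydrolase. The enzyme cleaves the short acyl chain of PAF, a signalling lipid of inflammation, and the oxidized acyl chains of damaged phosphatidylcholine, which yields lysolipids and free oxidized fatty acids. Macrophages are a main source of the enzyme, and in plasma it travels on lipoproteins. In the spleen, the macrophages of the red pulp engulf old red cells and return their iron to the blood. No function is stated here for 1700071M16Rik.

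In the GENCODE M21 annotation of GRCm38, Pla2g7 runs on the plus strand of chromosome 17 from position 43568098 to 43612201. Its 6 transcripts cover 2905 exonic bases. 1700071M16Rik runs on the minus strand from 43588340 to 43592442, wholly inside the Pla2g7 gene body. Its 4 transcripts cover 2883 exonic bases. The 2 genes share 319 exonic bases, in stretches of 140, 153 and 26 bases. The first of these is the second exon of the 12-exon Pla2g7 transcript (43588564 to 43588703), which all 6 Pla2g7 transcripts hold and which carries the start codon. Of the 2564 antisense exonic bases that are not shared, 2340 lie in the second intron of that transcript and 224 in its first intron. Of the antisense transcripts, 1700071M16Rik-202 and 1700071M16Rik-203 reach this exon, and 1700071M16Rik-201 and 1700071M16Rik-204 do not. The sequences below show the coding part of this exon as each strand writes it. It is part of the longest complementary stretch that all Pla2g7 transcripts hold. In the Pla2g7 line, the capitals mark the start codon. In the 1700071M16Rik line, the capitals mark the 106 bases complementary to the Pla2g7 line, and the 100 lower-case bases before them lie in the second intron of Pla2g7.

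Pla2g7, chr17:43588598-43588703, plus strand, GRCm38: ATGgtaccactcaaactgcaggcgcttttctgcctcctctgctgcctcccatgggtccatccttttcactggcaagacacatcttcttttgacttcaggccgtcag
1700071M16Rik, chr17:43588598-43588803, minus strand, GRCm38: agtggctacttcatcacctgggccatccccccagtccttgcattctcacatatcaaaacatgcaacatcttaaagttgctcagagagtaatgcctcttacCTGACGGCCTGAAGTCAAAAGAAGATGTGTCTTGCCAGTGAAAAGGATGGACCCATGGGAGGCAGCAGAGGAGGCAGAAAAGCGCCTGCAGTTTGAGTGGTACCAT

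**Figure D1:**
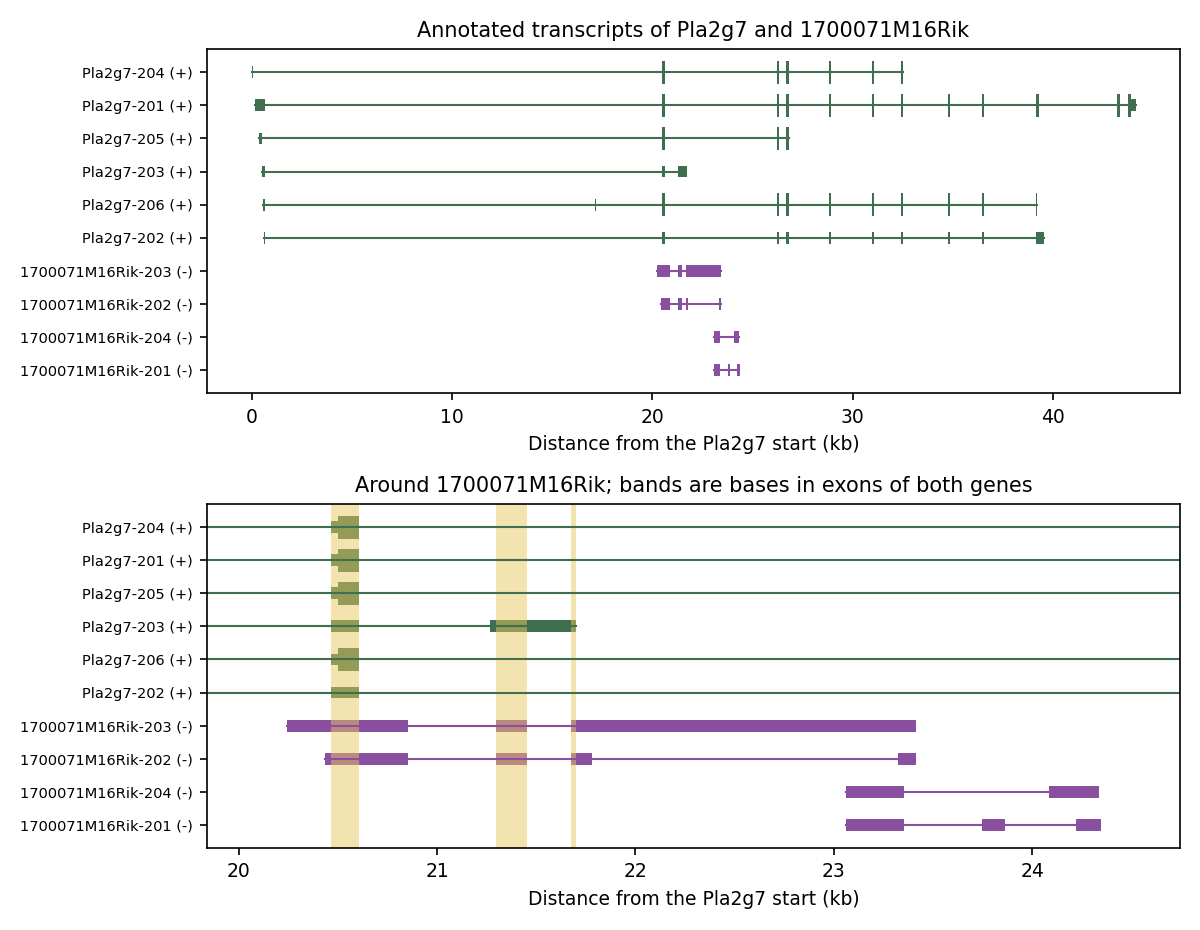
Annotated transcripts of Pla2g7 (green, plus strand) and 1700071M16Rik (purple, minus strand) by distance in kb from the Pla2g7 start, above for the whole of Pla2g7 and below around 1700071M16Rik. Thin boxes are exons, tall boxes are coding parts, and the yellow bands are the 3 stretches of 140, 153 and 26 bases that lie in exons of both genes.

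Whether the authors counted reads by strand is not given in the sources used here. Without strand, reads of 1700071M16Rik and reads of unspliced Pla2g7 RNA cannot be told apart, because all of the unshared antisense bases lie in Pla2g7 introns. The table itself bears on the shared bases. Of 54 genes that lie wholly inside exons of an opposite-strand gene, with at least 2000 reads to be expected over them from that gene's level, 0 had a count in any of the 18 libraries. Of 207 antisense-type genes that share only part of their exons with such a gene and have at least 200 bases outside it, 205 had counts (99.0%). Of 1223 antisense-type genes with no opposite-strand exonic overlap, 849 had counts (69.4%). Counting that ignores strand and sets aside reads of shared bases gives zeros of this kind. The 2 rows therefore hold few or no reads of the 319 shared bases if the table was made that way, and the counts given to 1700071M16Rik come from bases inside Pla2g7 introns.

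Libraries of spleen held 16493694 to 20352346 counts and those of macrophages 18107264 to 33844807. No library was a copy of another of its group. Levels are CPM, counts scaled for library size (by TMM, over all 18 libraries), as mean ± SD. Levels of different genes are ranked as RPKM, which divides CPM by exonic length in kb. The antisense share of the pair uses counts, and Pla2g7 as a percent of red pulp markers uses CPM, both without regard to length. Markers of red pulp macrophages were present in each spleen library (summed level of 12 genes 313 to 813 CPM) and far higher in the macrophage preparations (14987 to 25619 CPM), which also held B cell markers at 1801 to 3158 CPM against 3258 to 5277 CPM in spleen. Macrophage PM2.5 replicate 1 stood apart. For 61.6% of 9638 genes its level fell outside the range of the other 9 macrophage libraries, against 7.74% to 29.4% for each of those.

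Pla2g7 was a high-level gene of the isolated macrophages and a moderate one of whole spleen. In air spleens its level was 46.9, 23.7, 19.5 and 25.8 CPM in replicates 1 to 4 (29.0 ± 12.3 CPM, SD, n = 4). In PM2.5 spleens it was 35.0, 35.1, 42.1 and 30.0 CPM (35.5 ± 4.98 CPM, SD, n = 4). Air replicate 1 was the highest of all 8 spleen libraries and the other 3 air libraries were the lowest 3, so the groups overlapped through 1 library. The ratio of the 2 means was 1.23.

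In air macrophages the Pla2g7 level was 404, 450, 423, 341 and 487 CPM (421 ± 54.2 CPM, SD, n = 5). In PM2.5 macrophages it was 780, 409, 461, 314 and 403 CPM (473 ± 179 CPM, SD, n = 5). PM2.5 replicate 1 was the highest of the 10, and the other 4 PM2.5 libraries lay between 314 and 461 CPM, across the range of the air libraries. Each macrophage library was above each spleen library. The mean in macrophages was 14.5 times that of spleen in air and 13.3 times in PM2.5. The preparation and the experiment differ together between these groups and cannot be told apart. In the order of the 4 group means, spleen air and spleen PM2.5 did not differ beyond their spread, nor did macrophage air and macrophage PM2.5.

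1700071M16Rik, like Pla2g7, was higher in macrophages than in spleen, at a much lower level. In air macrophages it was 13.9, 17.5, 12.1, 13.3 and 14.5 CPM (14.3 ± 2.01 CPM, SD, n = 5), from 338, 288, 310, 259 and 239 counts. In PM2.5 macrophages it was 7.93, 13.8, 14.6, 9.61 and 10.9 CPM (11.4 ± 2.81 CPM, SD, n = 5), from 130, 354, 440, 184 and 288 counts. Replicate 1 was the lowest of the 10 libraries for the antisense row and the highest for Pla2g7. Without it the PM2.5 libraries ran from 9.61 to 14.6 CPM, which overlaps the air range of 12.1 to 17.5 CPM.

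In whole spleen the antisense row was close to the limit of detection. The 4 air libraries held 0, 3, 0 and 0 counts, and the 4 PM2.5 libraries held 23, 9, 22 and 15 counts. The PM2.5 level was 0.953, 0.432, 0.983 and 0.688 CPM (0.764 ± 0.258 CPM, SD, n = 4), and the air level was 0.143 CPM in replicate 2 and 0 in the others. A count of 0 allows up to 3 counts, which is 0.139 to 0.168 CPM in those 3 air libraries. All 4 PM2.5 libraries were therefore above all 4 air libraries, with no overlap. The same held for 4.83% of all genes tested in spleen and for 4.72% of genes with similar spleen counts. Together the air spleens gave 3 counts and the PM2.5 spleens 69, a ratio of 20.3 after scaling for depth, with an exact 95% interval of 6.66 to 100.9 that covers counting error only. The mean in PM2.5 macrophages was 14.9 times that in PM2.5 spleens. In air, the 1434 counts of macrophages against the 3 of spleens gave a ratio of 367 after scaling for depth (exact 95% interval 125 to 1784, counting error only), where the ratio of means for Pla2g7 was 14.5.

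**Figure D2:**
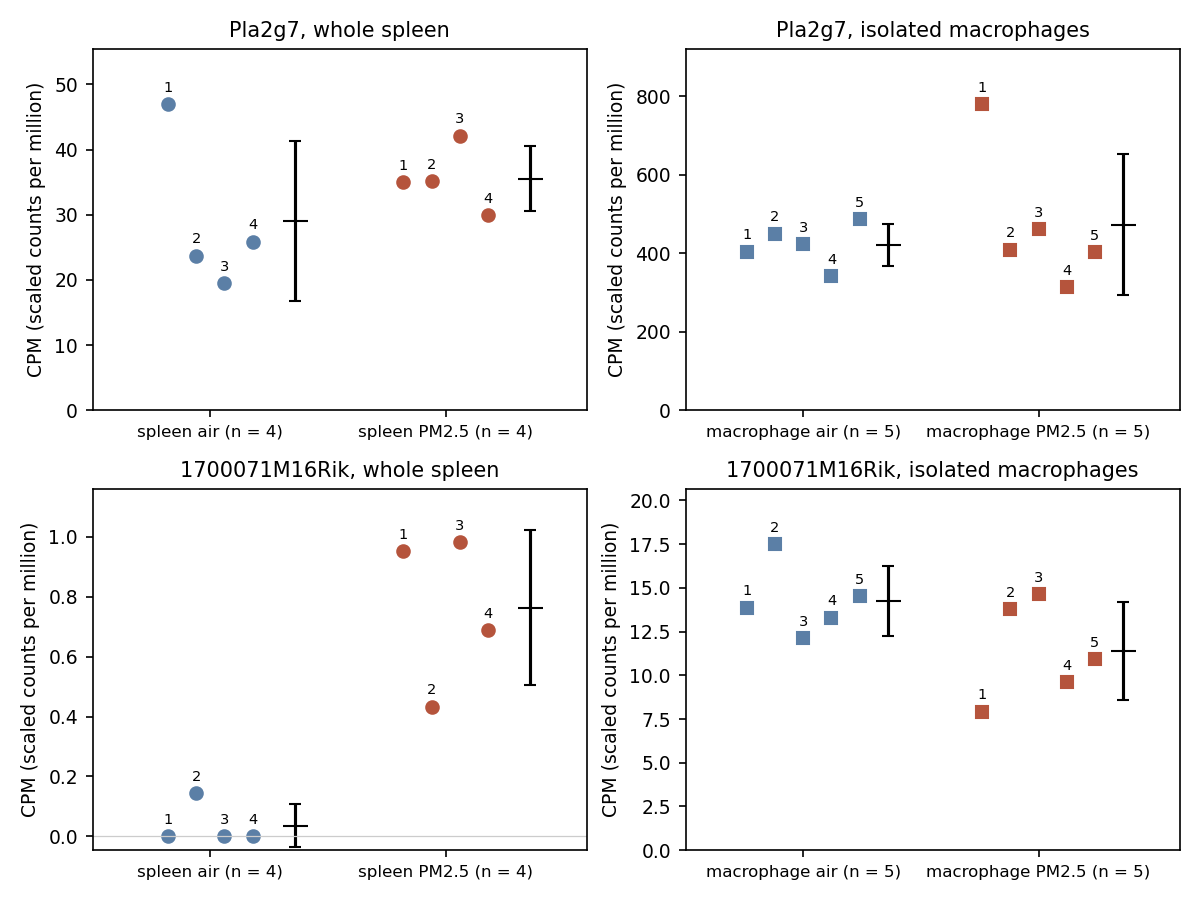
Levels of Pla2g7 (top) and 1700071M16Rik (bottom) in CPM in each library of whole spleen (left) and isolated macrophages (right), with replicate numbers beside the points and mean ± SD in black. The antisense row separates air from PM2.5 spleens (0 to 0.143 against 0.432 to 0.983 CPM), as do 4.83% of genes tested in spleen, while Pla2g7 does not.

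The fitted PM2.5 differences of the members were as follows, on the log2 scale of edgeR. For Pla2g7 the value was 0.26 (SE 0.26) in spleen and 0.18 (SE 0.21) in macrophages, and the macrophage value minus the spleen value was -0.077 (SE 0.35). For 1700071M16Rik the macrophage value was -0.31 (SE 0.17). In spleen the antisense row had too few counts for the filter, and an unfiltered fit gave 4.16 (SE 1.25). The macrophage value minus the spleen value was -4.44 (SE 0.65) in the joint fit. That fit takes 1 spread per gene from all 18 libraries, macrophages included. Its SE is therefore no measure of the precision of the spleen value. As background for the gene lists below, the threshold of 0.05 on the Benjamini-Hochberg adjusted p was passed by 2 of 16551 genes tested in spleen (0.0121%), 0 of 15696 in macrophages (0%) and 259 of 17779 for the difference (1.46%). At an unadjusted p under 0.05 the shares were 16.7%, 10.9% and 20.6%. DESeq2 called 830, 175 and 1044 genes in the same comparisons and limma-voom 1, 0 and 3. All PM2.5 libraries lay above all air libraries for 4.83% of genes in spleen and 1.17% in macrophages.

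1 library moved the Pla2g7 values. Without spleen air replicate 1 the spleen difference was 0.61. Without spleen air replicates 3 and 4, which also held liver markers at 50.0 and 87.9 CPM against 8.58 to 9.06 CPM in the other 2 air spleens, it was -0.046. Without macrophage PM2.5 replicate 1 the macrophage difference was -0.085, and with that library counted as air, as its treatment tag reads, it was -0.28. The sign of the Pla2g7 difference between air and PM2.5 thus turned with the choice of libraries in both experiments. For the antisense row the macrophage difference was -0.22 without PM2.5 replicate 1 and -0.11 with it counted as air.

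The share of the pair's counts that went to the antisense row gives the 2 genes on a scale that does not depend on library scaling. In macrophage air this share was 3.31%, 3.74%, 2.78%, 3.75% and 2.90% (3.30 ± 0.455%, SD, n = 5). In macrophage PM2.5 it was 1.01%, 3.26%, 3.08%, 2.97% and 2.64% (2.59 ± 0.914%, SD, n = 5). All 10 macrophage libraries apart from PM2.5 replicate 1 lay within 2.64% to 3.75%. In that replicate the exact 95% interval was 0.842% to 1.19%, below those of the other 9. Over all antisense-type genes in the annotation the share of library counts was also lowest there among the macrophage libraries, at 0.138% against 0.166% to 0.186%. Its part in the result was not tested.

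In PM2.5 spleens the share was 2.65%, 1.21%, 2.28% and 2.25%, and in air spleens 0%, 0.6%, 0% and 0%. Pooled over libraries it was 2.13% in PM2.5 spleens (exact 95% interval 1.66% to 2.69%), 0.134% in air spleens (0.0277% to 0.392%) and 2.85% in macrophages (2.75% to 2.95%). Had the macrophage ratio held in spleen, the 2228 Pla2g7 counts of the air spleens would have come with 65.3 antisense counts, and 3 were seen. The 3171 Pla2g7 counts of the PM2.5 spleens would have come with 92.9, and 69 were seen. The air spleens were below the macrophage ratio by more than the PM2.5 spleens were. These intervals cover counting error only.

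**Figure D3:**
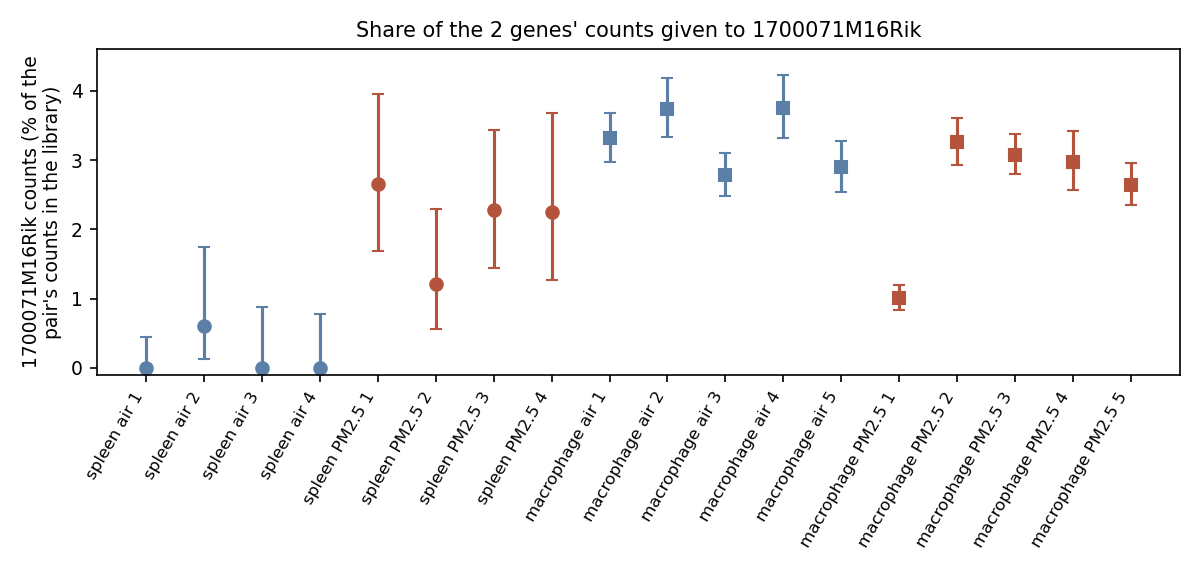
Counts of 1700071M16Rik as a percent of the counts of both genes in each of the 18 libraries, with exact 95% binomial intervals (blue, air; red, PM2.5; circles, spleen; squares, macrophages). In 3 air spleens the share is 0%, and macrophage PM2.5 replicate 1 is at 1.01% while the other 9 macrophage libraries lie between 2.64% and 3.75%.

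The spleen libraries differed in how many genes they detected, and within each group this moved with the antisense row. Genes with at least 1 count numbered 20880, 22870, 20396 and 19694 in air replicates 1 to 4 and 23792, 21700, 23426 and 22002 in PM2.5 replicates 1 to 4. Air replicate 2, the only air library with antisense counts, detected the most genes of its group. PM2.5 replicate 2, with the fewest antisense counts of its group, detected the fewest. Between the groups the order did not hold. Air replicate 2, with 3 antisense counts, detected more genes than PM2.5 replicates 2 and 4, with 9 and 15. Genes at 0 in a library while the other spleen libraries averaged at least 10 counts numbered 384, 115, 397 and 553 in air and 63, 149, 46 and 103 in PM2.5. Antisense-type genes detected numbered 915, 1227, 886 and 798 in air and 1344, 1099, 1292 and 1124 in PM2.5. The part of detection in the antisense result was not tested.

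**Figure D4:**
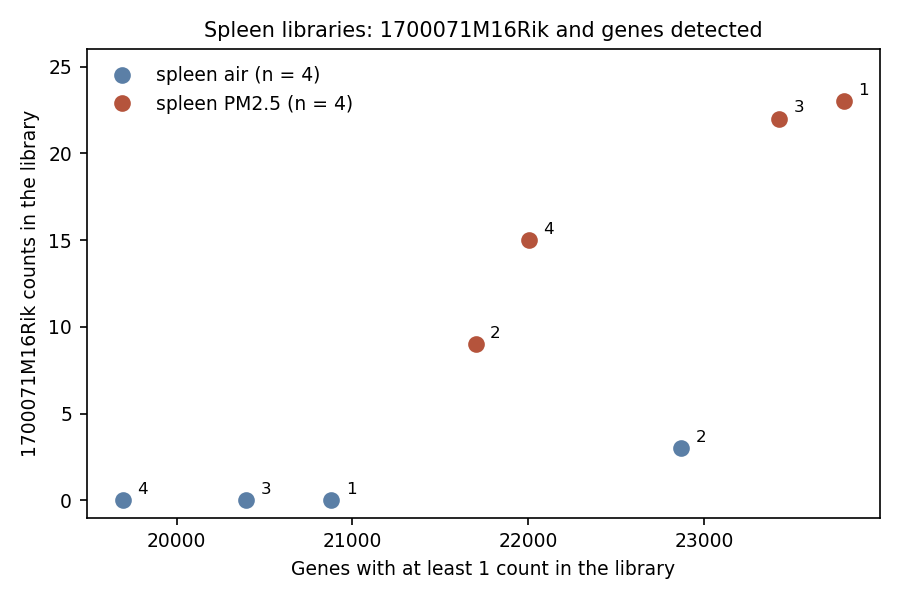
Counts of 1700071M16Rik against the number of genes with at least 1 count in the 8 spleen libraries (blue, air; red, PM2.5), with replicate numbers. The 3 air libraries with 0 counts detected 19694 to 20880 genes, and the PM2.5 libraries with 9 to 23 counts detected 21700 to 23792. Air replicate 2, with 3 counts, detected 22870, which lies inside the PM2.5 range.

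Genes of similar depth showed the same lean. In spleen, 4007 genes had between 36 and 144 counts in all, around the 72 of 1700071M16Rik. Among them all PM2.5 libraries were above all air libraries for 189 (4.72%) and below for 30. An air total of at most 3 counts, as for 1700071M16Rik, occurred in 128 (3.19%), and a PM2.5 total of at most 3 in 7 (0.175%). Only 28 of the 4007 had at least 130 counts in each macrophage library, as 1700071M16Rik does. Of the 28, itself included, 7 had all PM2.5 above all air libraries and 0 the reverse. Both selections were set by the counts of 1700071M16Rik, so these numbers are descriptions and no test.

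Other antisense genes nested in coding genes gave a further comparison. The annotation holds 1552 such pairs. In 414 the host had at least 10000 counts in macrophages, and there the antisense row had a median per-base level of 1.91% of its host (quartiles 0.678% and 6.27%), against 2.96% for 1700071M16Rik and Pla2g7. In spleen, 374 pairs had at least 30 antisense counts. Their antisense rows had a median PM2.5 to air ratio of 1.29 (quartiles 0.895 and 2.14), and 253 were above 1, while the hosts had a median of 1.04. 1700071M16Rik had a ratio of 17.5 with a pseudocount of 0.5, and Pla2g7 1.26. Its place among the pairs is no test, because the ratio was known when the pair was chosen and 69 of its 72 spleen counts are from PM2.5 libraries. AU040972, inside the RAS regulator Nf1, had 0 air and 107 PM2.5 counts, and Gm26626, inside the transcription factor gene Runx1, had 0 and 36. These 2 examples were chosen after their values were seen.

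Cell type markers also moved in the spleens, up for some lists and down for others. The red pulp macrophage list summed to 615, 343, 313 and 343 CPM in air spleens and to 531, 560, 691 and 813 CPM in PM2.5 spleens. Pla2g7 was 7.63%, 6.90%, 6.21% and 7.53% of that sum in air and 6.59%, 6.28%, 6.09% and 3.69% in PM2.5. Air replicate 1 thus had the highest Pla2g7 and the highest red pulp marker level of its group. A change in the number of macrophages and a change in RNA per macrophage cannot be told apart in whole spleen. The mesothelial list, of the cells that cover the spleen surface, summed to 2.73 to 4.98 CPM in air spleens and 39.4 to 229.7 CPM in PM2.5 spleens, with at most 3 of its 7 genes at 0 in an air library. The neutrophil list summed to 3.05 to 75.5 CPM in air spleens and 17.3 to 198.2 CPM with PM2.5. Erythroid markers ran from 142 to 1300 CPM in air spleens and from 388 to 7444 CPM in PM2.5. T cell markers were lower, at 795 to 1110 CPM in air spleens and 606 to 777 CPM in PM2.5. The summed list of general macrophage and monocyte markers did not rise, at 1635 to 2697 CPM in air and 1422 to 2083 CPM in PM2.5. Lyz2 made up most of that sum, at a mean of 1712 CPM in air spleens and 1437 CPM in PM2.5 spleens. Ly6c2 was also lower in the mean, at 83.8 and 63.4 CPM. The other members of the list had higher means in PM2.5 spleens, among them Csf1r (108 and 163 CPM) and Cd68 (31.8 and 34.4 CPM). The part of these cells in the Pla2g7 and 1700071M16Rik values was not tested. In macrophages Pla2g7 was 1.90% to 2.08% of the red pulp sum in air, 3.89% in PM2.5 replicate 1 and 1.97% to 2.10% in the other PM2.5 libraries.

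Within the phospholipase A2 family, Pla2g7 changed place between whole spleen and macrophages. By mean RPKM it ranked 4 of 26 genes in spleen air (9.98 RPKM) and 3 in spleen PM2.5 (12.2 RPKM). The spleen leader was Pla2g2d, a secreted phospholipase A2 of lymphoid tissue, at 66.7 and 53.5 RPKM. In macrophages Pla2g15, the lysosomal phospholipase A2, and Pla2g7 led the family. They stood at 151 and 145 RPKM in air and at 135 and 163 RPKM in PM2.5. Pla2g7 made up 7.04 ± 2.58% and 8.69 ± 1.10% of the family's summed RPKM in spleen air and PM2.5 (SD, n = 4), and 29.4 ± 1.67% and 31.6 ± 5.66% in macrophage air and PM2.5 (SD, n = 5). Over all 52133 annotated genes of the table its rank was 4491, 3828, 324 and 301 in the same order of groups. The antisense row stood at 4.95 RPKM in macrophage air and 3.95 RPKM in macrophage PM2.5, and Pla2g7 was 29.3 and 41.3 times higher per base.

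The genes around Pla2g7 differed in their levels. Of the 16 genes annotated within 500 kb, the members included, Tnfrsf21, a death-domain receptor gene, was also higher in macrophages (308 CPM in air) than in spleen (20.4 CPM), and Enpp4, an ectonucleotide phosphatase gene, stood at 97.7 and 25.2 CPM. Enpp5 was at 10.5 and 12.8 CPM, Cyp39a1, an oxysterol hydroxylase gene, at 9.90 and 10.3 CPM, and Slc25a27, a mitochondrial carrier gene, at 2.90 and 5.34 CPM. Adgrf5 went the other way, with 5.43 CPM in macrophage air and 20.4 CPM in spleen air, as did Rcan2, a calcineurin regulator gene, with 0.102 and 0.952 CPM. Ankrd66, Tdrd6, CT486005.1, Gm25135 and Gm25783 held at most 121 counts in all 18 libraries, and Adgrf1 and Mep1a held none. None of the neighbours tested passed the adjusted threshold of edgeR for PM2.5 in either experiment. Rcan2 had the largest fitted value, 1.81 in spleen, and Tnfrsf21 had 0.30 in spleen and -0.33 in macrophages.

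Profiles most like that of Pla2g7 were sought by the mean absolute difference of log2(CPM + 1) after centring each gene on its own mean. Over the 8 spleen libraries the nearest of 14694 genes were Hfe (0.121), the hereditary haemochromatosis gene, Clec4n (0.123), the dectin-2 receptor, Slc46a1 (0.130), a folate and heme transporter, Slc8a1 (0.143), a sodium-calcium exchanger, and Atp8a2 (0.149). Over the 10 macrophage libraries the nearest of 13755 were Gpx4-ps2 (0.079), Macrod1 (0.080), Mrpl14 (0.088), Mt1 (0.089) and Myom1 (0.094). These genes, too, were high in macrophage PM2.5 replicate 1, for example Mt1, a metallothionein, at 96.5 CPM against a mean of 53.3 CPM in air. Over all 18 libraries the nearest of 14556 were Ctsb (0.190), the lysosomal protease cathepsin B, Slc8a1 (0.198), Hfe (0.206), Mpeg1 (0.210), a pore-forming protein of macrophages, and Fmnl2 (0.217). Hfe was at 12.7 and 15.4 CPM in spleen air and PM2.5 and at 265 and 221 CPM in macrophages. The libraries share their depth and preparation across genes, and the distances are descriptions.

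The enzymes that make and break PAF showed no PM2.5 call in either experiment. Lists of 72 genes in 7 groups were followed, and 58 were tested in spleen and 59 in macrophages. None passed the adjusted threshold with edgeR's quasi-likelihood test in either. At an unadjusted p under 0.05, 9 were higher and 4 lower in spleen, which is 13 of 58 against 16.7% of all genes. In macrophages 2 were higher and 3 lower, against 10.9% of all genes. The median log2 difference of the lists was 0.065 in spleen (0.017 over all genes tested) and 0.012 in macrophages (0.0062 over all genes tested). DESeq2 called 6 of the list genes in spleen and 0 in macrophages, and limma-voom called 0 in both.

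Among the other PAF hydrolases, Pafah2, an intracellular enzyme, stood at 3.41 ± 1.28 CPM in spleen air and 4.50 ± 1.26 CPM in PM2.5 (SD, n = 4), with a log2 difference of 0.38 (SE 0.34), and at 4.33 and 4.78 CPM in macrophages. Pafah1b3, a catalytic subunit of the brain-type complex, had differences of -0.31 (SE 0.14) in spleen and 0.40 (SE 0.25) in macrophages. Among the genes of synthesis, Lpcat2, the acyltransferase of inducible PAF synthesis, was at 19.7 and 21.7 CPM in spleen and 181 and 149 CPM in macrophages. Its differences were 0.11 (SE 0.17) and -0.26 (SE 0.13). Pla2g4a, the cytosolic phospholipase A2 that releases arachidonic acid and lyso-PAF precursors, was at 7.11 and 8.33 CPM in spleen and 72.8 and 62.8 CPM in macrophages, with differences of 0.19 (SE 0.29) and -0.20 (SE 0.12). Far2, a fatty acyl-CoA reductase of ether lipid synthesis, had the smallest p of this list in spleen, with -0.61 (SE 0.21) and an edgeR adjusted p of 0.187. Lpcat2 and Pla2g4a were thus, like Pla2g7, higher in the macrophage preparations.

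The PAF receptor gene Ptafr was at 12.3 and 11.5 CPM in air and PM2.5 spleens and at 23.2 and 20.6 CPM in air and PM2.5 macrophages. Its differences were -0.13 (SE 0.19) and -0.15 (SE 0.15). Gpr132, a receptor that responds to lysolipids and oxidized fatty acids, had -0.17 (SE 0.20) and -0.19 (SE 0.14). Of the reacylation enzymes, Mboat2 had a large value in spleen, 3.67 (SE 1.06), at a mean of 0.303 CPM in air spleens and 3.92 CPM with PM2.5, with an edgeR adjusted p of 0.142. The Mboat2 value was 6.14 without spleen air replicate 1 and 2.09 without spleen PM2.5 replicates 2 and 4. Of the phospholipase A2 family, Pla2g2d had -0.35 (SE 0.15) in spleen and 0.12 (SE 0.14) in macrophages. Pltp, a phospholipid transfer protein of lipoproteins, had 0.76 (SE 0.23) in spleen and -0.21 (SE 0.13) in macrophages. None of these passed the threshold.

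Eicosanoid enzymes, which act on the fatty acids that phospholipases release, were the list with most unadjusted differences in spleen. Of 11 tested, 6 were higher at an unadjusted p under 0.05 and 0 lower, against 16.7% of all genes in either direction. The median log2 difference was 0.77, and 0 passed the adjusted threshold. This list was singled out of the 7 after its values were seen. Ptgs1, the constitutive cyclooxygenase, was at 9.56 to 10.7 CPM in air spleens and 13.0 to 23.5 CPM in PM2.5 spleens. Its fitted difference was 0.77 (SE 0.20, edgeR adjusted p = 0.127). Alox5, the 5-lipoxygenase of leukotriene synthesis, was at 0 to 0.238 CPM in air spleens and 0.912 to 1.79 CPM in PM2.5 spleens. Ptgis, prostacyclin synthase, was at 0.164 to 1.57 CPM in the air group and 2.07 to 17.6 CPM in the PM2.5 group. Ltc4s, leukotriene C4 synthase, was at 0.604 to 1.91 CPM in air spleens and 2.64 to 7.43 CPM in PM2.5 spleens. These 4 genes have the smallest p of the list, and Ltc4s, the next after the 3 that the naming rule takes, was chosen after its values were seen. Over the 11 tested genes, all PM2.5 libraries lay above all air libraries for 5, against 4.83% of all genes tested, and below them for 1, against 4.13% of all genes. Detected genes and mesothelial and red pulp markers also differed between these libraries, as given above. Of these, detected genes and the summed red pulp list overlapped between air and PM2.5 spleens. Within that list Cd163 (1.04 to 2.41 against 4.10 to 17.5 CPM), Mrc1 (1.72 to 5.26 against 10.6 to 37.7 CPM) and Treml4 did not overlap. The other members of the list did. The part of detected genes and of these markers in the values of the 5 genes was not tested.

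In macrophages the eicosanoid list had 0 higher and 2 lower of 12 at an unadjusted p under 0.05, against 10.9% of all genes. Ptgs1 had -0.44 (SE 0.14, edgeR adjusted p = 0.312) and Ptgs2, the inducible cyclooxygenase, -0.62 (SE 0.24, edgeR adjusted p = 0.391). The PM2.5 difference in macrophages minus that in spleen passed the threshold in 3 of 61 list genes tested, all lower, against 1.46% of all genes tested. These were Alox5 with -3.63 (SE 0.68, edgeR adjusted p = 0.0183), Ptgs1 with -1.22 (SE 0.23, edgeR adjusted p = 0.0183) and Ptgis with -3.31 (SE 0.69, edgeR adjusted p = 0.0282). They come from the joint fit, which takes 1 spread per gene from all 18 libraries. These SEs and adjusted p-values therefore do not measure the precision of the spleen values. Fitted in spleen alone, the SE was 0.90 for Alox5, 0.20 for Ptgs1 and 0.74 for Ptgis. The Ptgs1 call was lost with limma-voom (-1.19), without spleen air replicates 3 and 4 (-1.10), without spleen PM2.5 replicates 2 and 4 (-1.04) and with macrophage PM2.5 replicate 1 counted as air (-1.06). The Alox5 call was lost with limma-voom (-4.02), with the replicate block (-3.73), without spleen air replicates 3 and 4 (-2.64) and without spleen PM2.5 replicates 2 and 4 (-3.45), and its value was -5.45 without spleen air replicate 2. The Ptgis call was lost in 10 of 29 alternatives, among them without spleen air replicate 3 (-3.10) or 4 (-2.97), spleen PM2.5 replicate 3 (-3.17) or 4 (-2.70), macrophage air replicate 5 (-3.15) and macrophage PM2.5 replicate 4 (-3.23), each left out alone.

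**Figure D5:**
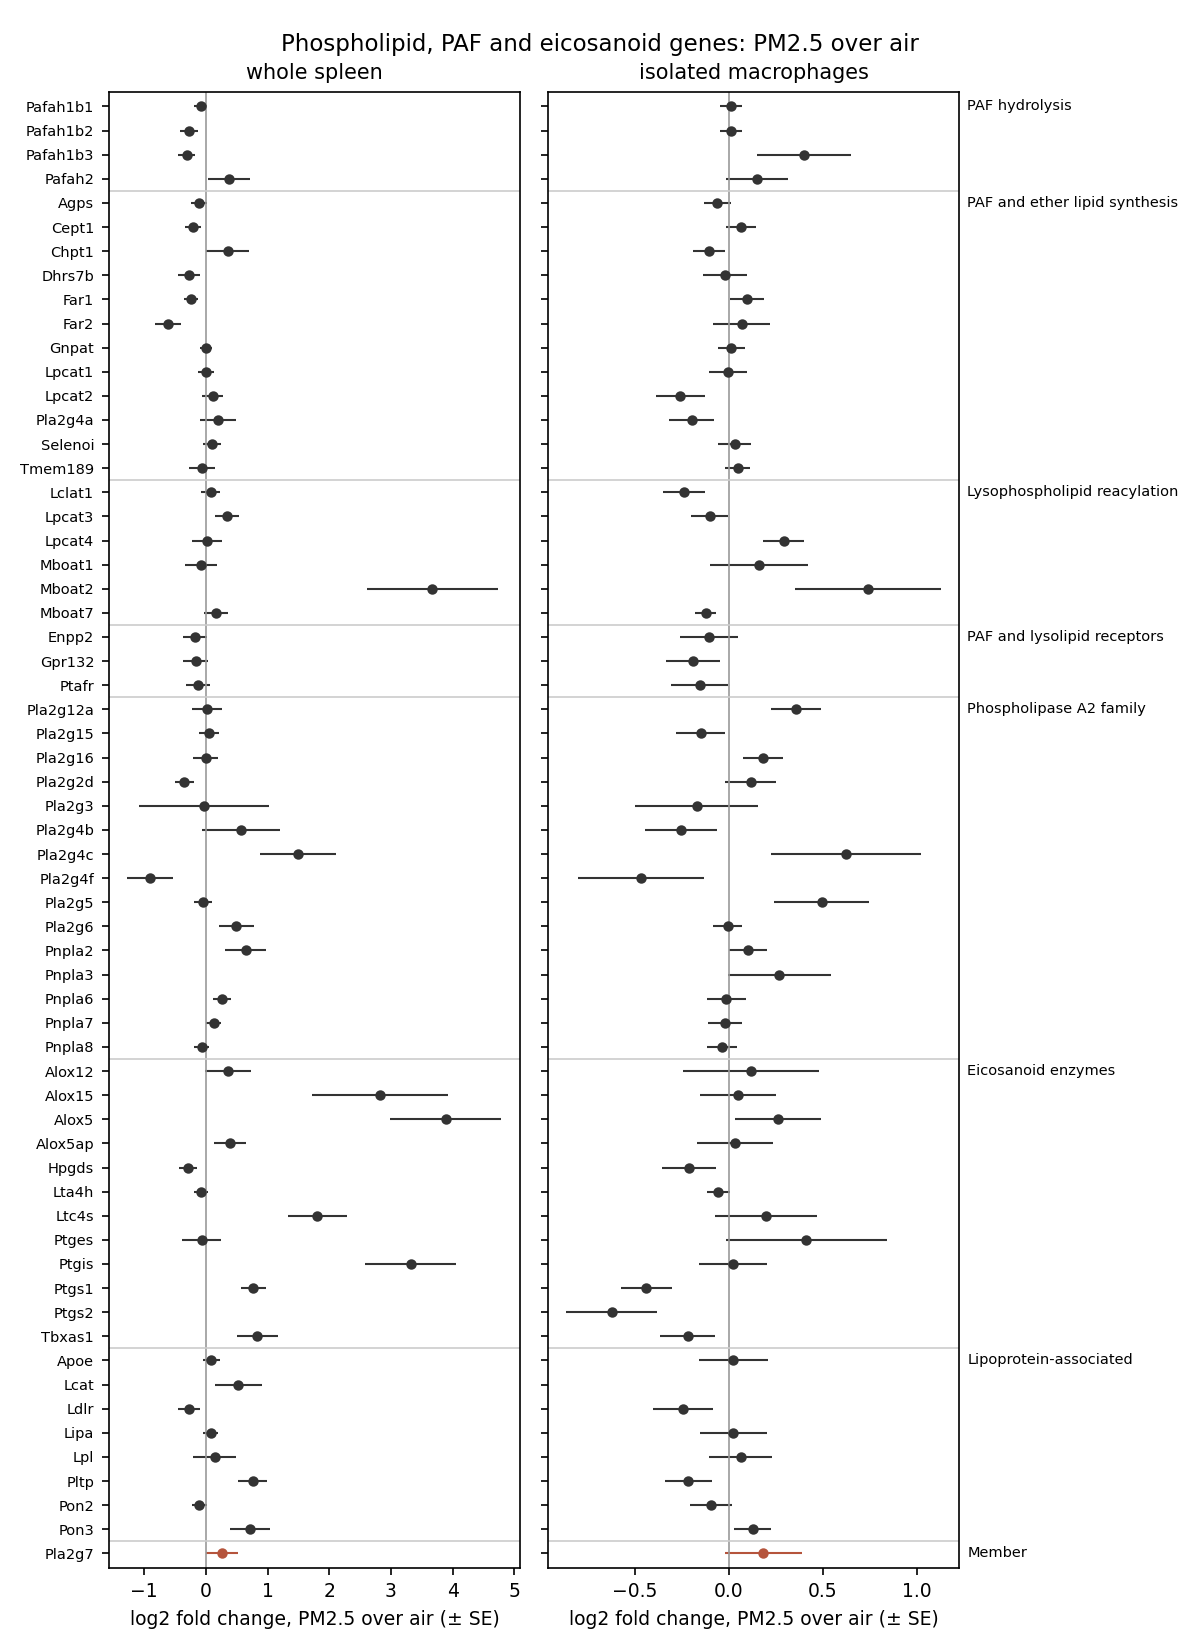
Fitted log2 differences of PM2.5 over air, with SE bars, for the tested genes of the 7 lipid lists and for Pla2g7 (red), in whole spleen (left) and isolated macrophages (right, with a narrower axis). No list gene passed the adjusted threshold, and the largest spleen values are Alox5 (3.89), Mboat2 (3.67) and Ptgis (3.32), all genes of low level in air spleens.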

How the data were processed

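Per the submitters' processing notes, FastQC 0.10.1 and HTSeq 0.10.0 were used with builds mm10 and GRCm38. The deposited table holds raw counts per Ensembl gene, made by the authors without normalization. Aligner, annotation release and strand setting: not given in the sources used here. Of 55414 identifiers, 52133 matched GENCODE M21, and the others held 0.303% of counts.

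Counts were analysed with edgeR 4.0.16 in R 4.3.3: filterByExpr (minimum count 10, total 15), TMM, quasi-likelihood F test, two-sided, Benjamini-Hochberg adjustment over all genes, threshold 0.05. Each experiment was fitted alone, and the difference of the PM2.5 effects in 1 fit of 18 libraries. Each SE is the absolute log2 difference divided by the square root of its F statistic. The spleen value of 1700071M16Rik, which misses the filter, comes from an unfiltered fit. DESeq2 1.42.0 and limma 3.58.1 were alternatives. P-values measure the spread between these libraries only.

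Members, gene lists and tests were chosen with earlier results of these data known. Named genes were the members, genes within 500 kb, list members with the 3 smallest p per list or any call, 4 PAF genes and the 5 nearest profiles, from which the text takes examples. The checks of strand, detection, similar counts, nested pairs and list overlap were chosen after seeing the data, as were the alternatives for single list genes. Tested on simulated data, the spleen fit found 40.4% of planted 2-fold and 72.1% of 4-fold changes, with 6.45% of its calls false (16109 genes), and the macrophage fit 80.0% and 97.9%, with 2.21% false (15499 genes).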

Additional observations from a re-analysis of the deposited data

Results flagged for a closer look

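In spleen air, the 1700071M16Rik level of replicate 2 (0.143 CPM, 0.6% of the pair's counts) was flagged against the 3 libraries at 0. With those 3 tied at 0, any value above 0 is flagged, so this flag carries no information. In macrophage PM2.5, replicate 1 stood apart from the other 4 with an antisense share of 1.01% and with a Pla2g7 level of 3.89% of the summed red pulp markers. Pla2g4a in spleen air replicate 1 was 9.62 CPM, apart from the other 3. Apart from the tied zeros, such a gap is expected by chance in about 1 group of 20, and 32 groups of values were examined.

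The PM2.5 difference in macrophages minus that in spleen passed the threshold for Alox5 (-3.63), Ptgs1 (-1.22) and Ptgis (-3.31), by the contrast of the joint edgeR fit. That fit does not measure the precision of the spleen values, as given above.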

How the results depend on the processing

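The spleen count of 2 called genes was 1 with DESeq2's size factors or limma-voom, 830 with DESeq2, 461 with no filter, 12 with a filter of 1 CPM throughout a group, 1050 in the joint fit, 0 with spleen air replicates 3 and 4 or spleen PM2.5 replicates 2 and 4 omitted, and 0 to 219 without 1 library (219 without air replicate 2, 136 without PM2.5 replicate 1). The macrophage count of 0 was 175 with DESeq2, 1 with no filter and 0 to 17 without 1 library (17 without air replicate 4). The 259 genes of the difference became 1044 with DESeq2, 3 with limma-voom, 9 and 48 with those spleen air and PM2.5 libraries omitted, 87 with macrophage PM2.5 replicate 1 counted as air, and 68 to 1317 without 1 library (1317 without spleen air replicate 2, 68 without spleen air replicate 3). List genes called in spleen (0) were 6 with DESeq2, 2 with no filter, 7 in the joint fit and 0 to 1 without 1 library. In macrophages they were 0 in every alternative run. For the difference (3) they were 6 with DESeq2, 5 with no filter, 0 with limma-voom, 1 and 0 with those spleen air and PM2.5 libraries omitted, and 2 to 5 without 1 library. With the replicate block the counts were 3 in spleen, 0 in macrophages and 91 for the difference, and list genes of the difference 1. Same-numbered libraries correlated between -0.149 and 0.329 in their deviations from the group means, not all above 0.1, so the numbers were not taken as pairs. The Pla2g7 value without 1 library was 0.099 to 0.61 in spleen, -0.085 to 0.30 in macrophages and -0.44 to 0.095 for the difference. With macrophage PM2.5 replicate 1 counted as air it was -0.28 in macrophages and -0.53 for the difference. The 1700071M16Rik spleen value of 4.16 was 4.75 with the replicate block, 3.26 and 4.50 with those spleen air and PM2.5 libraries omitted, and 3.78 to 7.001 without 1 library (the highest without air replicate 2, which leaves no air counts, so that the value depends on the prior count). Its difference of -4.44 was -3.50 and -4.77 with those libraries omitted and -7.44 to -4.03 without 1 library. Its macrophage value was -0.41 to -0.22 without 1 library. CPM on raw totals put Pla2g7 at 41.7 in PM2.5 spleens, and the longest transcript as length put it at 226 RPKM in macrophage PM2.5. Except where a value or the number of libraries shows it, the cause of these changes was not tested. Depth limits the antisense row in spleen, where 3 counts are 0.124 to 0.168 CPM in a library.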
